A study of Mus musculus with 16 samples.

Results

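miR-511 is a microRNA whose hairpin lies inside an intron of Mrc1, the gene of the mannose receptor CD206, and the table of mature miRNA counts holds both of its arms, mmu-miR-511-3p and mmu-miR-511-5p (miR-511-3p and miR-511-5p below). The members were the rows whose names begin with mmu-miR-511-, which gave 2 of the 1372 mature miRNA names used. Counts came from small RNA sequencing of bone marrow dendritic cells cultured from 4 wild-type C57BL/6 mice, with 1 library of each mouse in each of 4 groups. The first group received quercetin, a plant flavonol given as the aglycone, at 25 µM on days 5 and 7, and then lipopolysaccharide (LPS), the TLR4 ligand of Gram-negative bacteria, which on day 8 was added at 1 µg/mL for 6 h. The second group received the same quercetin without LPS, the third the same LPS without quercetin, and the control group was left unstimulated. All groups share a lysis of red blood cells before culture. Mice 1 to 3 were 8 weeks old and mouse 4 was 7 weeks old by the labels, which name male mice except on the LPS library of mouse 2, where no sex is given. The growth factors of the cultures are not given in the sources used here.

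Mrc1 is a marker of macrophages activated by interleukin 4 and is also made by dendritic cells. A microRNA in an intron is transcribed with its host gene and cut out as a hairpin by Drosha. Dicer then cuts the hairpin, and one of its arms is loaded into an Argonaute protein. There the seed (bases 2 to 8) pairs with target mRNAs. In mouse macrophages the 3p arm has been described as the active strand of miR-511, with Rock2 among its targets, and in human monocytes and dendritic cells the 5p arm has been linked to the control of TLR4. Mrc1 mRNA and other long RNAs were not measured in these small RNA libraries.

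The sequences below are shown because the levels and shares of miR-511 that follow are counts of reads from the arms of this hairpin. They are RefSeq sequences of build GRCm38.p6, written 5′ to 3′. Capitals mark the seed in the mature arm, and the whole 3p arm in the hairpin.
mmu-miR-511-3p: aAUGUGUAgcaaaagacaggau
Mir511 hairpin: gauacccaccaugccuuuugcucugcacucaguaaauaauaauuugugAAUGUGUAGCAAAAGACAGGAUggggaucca

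The hairpin of 79 bases lies at chr2:14261003-14261081 on the plus strand, in intron 5 of the 30-exon transcript Mrc1-201, which runs along the same strand. It ends 107 bases before exon 6, in an intron of 4071 bases. The 3p arm of 22 bases occupies positions 49 to 70 of the hairpin, at chr2:14261051-14261072. A RefSeq mature sequence was matched for 1 of the 2 members, miR-511-3p. Its seed occurred in 0 other mouse mature miRNAs of the RefSeq table used. In the count table, 0 other rows held the same counts as either arm.

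Both arms were present in 16 of 16 libraries at a modest level. Levels are given in CPM (counts scaled to a common library size) with TMM, a normalization that assumes most miRNAs do not change. Total counts of the libraries lay between 6454535 (quercetin plus LPS replicate 3) and 13943904 (LPS replicate 2), with 6454535 to 9035375 in quercetin plus LPS, 7694885 to 8563815 in quercetin, 10096639 to 13943904 in LPS and 8660267 to 12529118 in control libraries. miR-511-3p collected 5343 counts in all, from 171 to 587 per library, and ranked 224 of 1372 names by its mean level. miR-511-5p collected 1917 counts, from 61 to 201 per library, and ranked 298. Across all libraries miR-511-3p covered a 2.79-fold range and miR-511-5p a 2.51-fold range. How readily each arm is ligated during library preparation was not measured, so a difference between the arms within a library is one of reads.

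With quercetin plus LPS, replicates 1 to 4 held miR-511-3p at 38.4, 33.4, 38.3 and 41.4 CPM, and it stood at 41.5, 43.5, 45.6 and 39.4 CPM in the quercetin replicates. It stood at 18.5, 16.7, 46.5 and 28.2 CPM in the LPS replicates, and at 43.4, 18.6, 34.4 and 31.0 CPM in the control replicates. The libraries with quercetin formed a narrow band, whereas those without it were scattered, with low values in LPS replicates 1 and 2 and control replicate 2 and the highest value of all in LPS replicate 3. The group means were 37.9 ± 3.30 CPM with quercetin plus LPS, 42.5 ± 2.69 with quercetin, 27.5 ± 13.7 with LPS and 31.8 ± 10.3 in control cells (SD, n = 4 each). In bulk RNA, fewer cells that make miR-511 and less of it per cell cannot be told apart.

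With quercetin plus LPS, replicates 1 to 4 held mmu-miR-511-5p at 15.8, 9.64, 9.76 and 8.21 CPM, and it stood at 18.6, 9.63, 13.3 and 9.84 CPM in the quercetin replicates. It stood at 12.4, 14.4, 13.7 and 10.6 CPM in the LPS replicates, and at 9.90, 20.6, 12.9 and 9.61 CPM in the control replicates. The groups lay on top of each other, with means of 10.8 ± 3.35, 12.8 ± 4.18, 12.8 ± 1.69 and 13.3 ± 5.14 CPM in quercetin plus LPS, quercetin, LPS and control libraries (SD, n = 4 each). The highest value of the 5p arm, in control replicate 2, came from the library with one of the lowest values of the 3p arm.

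**Figure D1:**
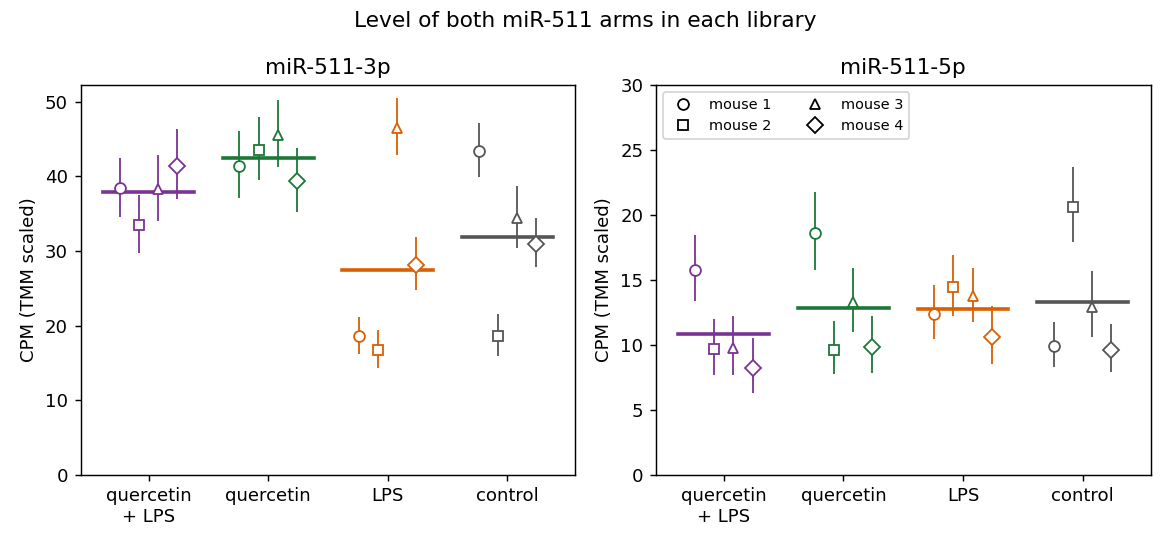
Level of miR-511-3p and miR-511-5p in each library, in CPM scaled by TMM. Each point is 1 library, labelled by mouse, with a 95% interval that covers counting error only. Horizontal lines mark the group means (n = 4). The 3p arm lies between 33.4 and 45.6 CPM in the libraries with quercetin and between 16.7 and 46.5 CPM in those without, while the 5p arm overlaps in all groups.

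The first question was whether quercetin changed miR-511 in cells that met LPS. miR-511-3p differed by a log2 fold change of 0.46 ± 0.30 (SE) between quercetin plus LPS and LPS cells, with a 95% interval of -0.17 to 1.10, and was higher in 3 of 4 mice. This did not pass edgeR's quasi-likelihood test (Benjamini-Hochberg adjusted p = 0.288), and the groups overlapped, as did those of miR-511-5p (20.2% of tested miRNAs had groups that did not). The exception was mouse 3, whose LPS library held the highest level of the study. Without LPS replicate 3 the log2 fold change was 1.02 and passed (adjusted p = 0.0156), the lowest of the adjusted p over the alternatives tried, which reached 0.529. miR-511-5p gave -0.24 ± 0.30 (95% interval -0.87 to 0.40, adjusted p = 0.638) and was higher in 1 of 4 mice, a value whose sign turned to 0.05 with upper quartile scaling and 0.04 with library size scaling. In this comparison 0 of 2 members passed, against 22.9% of the 568 miRNAs tested, and the median log2 fold change of all tested miRNAs was -0.13.

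The second question was whether quercetin alone changed miR-511. miR-511-3p differed by a log2 fold change of 0.42 ± 0.30 between quercetin and control cells (95% interval -0.22 to 1.05, edgeR adjusted p = 0.389) and was higher in 3 of 4 mice. In mouse 1 both libraries were close, at 41.5 CPM with quercetin and 43.4 CPM in control cells, whereas in mouse 2 they were 43.5 CPM with quercetin and 18.6 CPM in control cells. Without control replicate 2 the log2 fold change was 0.23 (adjusted p = 0.713), and without control replicate 1 it was 0.63 (adjusted p = 0.227). miR-511-5p gave -0.05 ± 0.30 (95% interval -0.68 to 0.58, edgeR adjusted p = 0.935), and its sign turned to 0.15 with upper quartile scaling. It was higher in 3 of 4 mice and lower in mouse 2, by a log2 difference of -1.08. Again 0 of 2 members passed, against 15.8% of all tested miRNAs, and both arms' groups overlapped, whereas those of 21.5% of miRNAs did not. Quercetin effects with and without LPS were compared by an interaction term, which was 0.05 ± 0.42 for miR-511-3p (95% interval -0.85 to 0.94, adjusted p = 0.979; 0.60 without LPS replicate 3, adjusted p = 0.793) and -0.19 ± 0.42 for miR-511-5p (95% interval -1.08 to 0.71, adjusted p = 0.923). For that term 0.0% of the tested miRNAs passed with edgeR, 4.58% had an unadjusted p under 0.05, and DESeq2 and limma-voom called 0 as well.

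Because both quercetin comparisons gave miR-511-3p a like value, their average was also tested, a contrast chosen after the data were seen. The 8 libraries with quercetin lay between 33.4 and 45.6 CPM with a median of 40.4, and the 8 without it between 16.7 and 46.5 CPM with a median of 29.6. Of those without quercetin, 5 lay below the lowest library with quercetin and 1 above the highest. The pooled log2 fold change of miR-511-3p was 0.44 ± 0.21 (95% interval -0.01 to 0.89, edgeR adjusted p = 0.116), with the quercetin mean higher in 4 of 4 mice. The call depended on single choices: it passed with upper quartile scaling (0.64, adjusted p = 0.0481), without control replicate 1 (0.63, adjusted p = 0.0341) and without LPS replicate 3 (0.72, adjusted p = 0.00635). It had an unadjusted p under 0.05 but did not pass after adjustment with DESeq2 (0.52, adjusted p = 0.0621), limma-voom (0.53, adjusted p = 0.0607) and mouse as a replicate block (0.50, adjusted p = 0.0582). Over all alternatives its adjusted p lay between 0.00635 and 0.419. miR-511-5p gave -0.14 ± 0.21 in the pooled contrast (adjusted p = 0.646), with a sign that turned to 0.10 under upper quartile scaling, and 36.3% of all tested miRNAs passed.

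LPS was examined in the same way, in cells without and with quercetin. miR-511-3p differed by a log2 fold change of -0.21 ± 0.30 between LPS and control cells (95% interval -0.85 to 0.42, edgeR adjusted p = 1.00) and was higher in 1 of 4 mice. Single libraries moved this value: it was -0.65 without LPS replicate 3 (adjusted p = 0.741), with an unadjusted p under 0.05, and -0.06 without control replicate 1 (adjusted p = 0.996). miR-511-5p differed by -0.05 ± 0.30 (95% interval -0.68 to 0.58, adjusted p = 1.00) and was higher in 3 of 4 mice, with 0.02 under limma-voom. Between quercetin plus LPS and quercetin cells miR-511-3p gave -0.17 ± 0.30 (95% interval -0.80 to 0.47, adjusted p = 0.876) and miR-511-5p -0.24 ± 0.30 (95% interval -0.88 to 0.39, adjusted p = 0.826). The average of both LPS comparisons, also chosen after the data were seen, was -0.19 ± 0.21 for miR-511-3p (adjusted p = 0.954) and -0.15 ± 0.21 for miR-511-5p (adjusted p = 0.962), where 1.41% of all miRNAs passed (8, against 3 to 11 under the alternatives). Neither arm passed in either comparison, in which 0.528% (LPS against control) and 0.352% (quercetin plus LPS against quercetin) of all miRNAs passed. The groups of both arms overlapped, while those of 3.17% and 3.7% of miRNAs did not. With all libraries, at an unadjusted p under 0.05, 0 of 2 members passed in any of the 4 comparisons of 2 groups with edgeR, DESeq2 or limma-voom. With edgeR, 37.5% of all miRNAs did so between quercetin plus LPS and LPS, 27.3% between quercetin and control, 4.58% between LPS and control and 7.22% between quercetin plus LPS and quercetin cells. The intervals leave room for changes of either sign, so these tests do not show that miR-511 was steady.

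**Figure D2:**
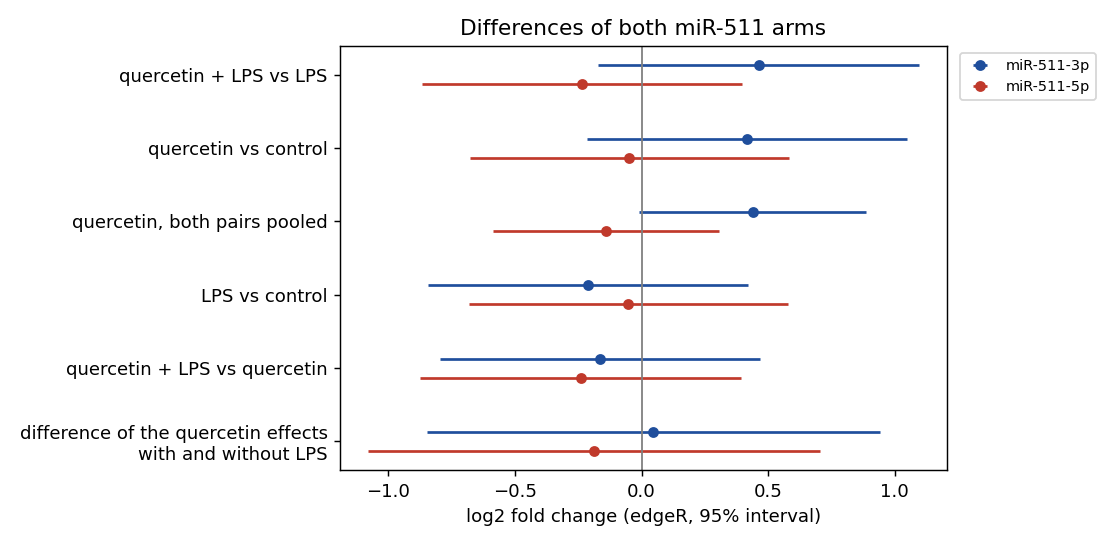
Log2 fold changes of miR-511-3p and miR-511-5p in each comparison; points are edgeR estimates and lines their 95% intervals. Every interval includes 0, and that of miR-511-3p with both quercetin pairs pooled begins at -0.01.

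The scatter of miR-511-3p differed more in appearance between groups than its mean did. The SD of its log2 CPM was 0.13 in quercetin plus LPS libraries, 0.09 in quercetin libraries, 0.67 in LPS libraries and 0.51 in control libraries (n = 4 each). With quercetin this was close to counting error: the SD of its CPM was 8.72% (with LPS) and 6.33% (without LPS) of the mean. Counting error alone averaged 5.65 and 5.21% there. In LPS and control libraries the SD was 49.8 and 32.3% of the mean, beside counting errors of 6.23 and 5.75%. In quercetin plus LPS libraries 2.11% of the tested miRNAs had a smaller SD, and in quercetin libraries 3.17%. In LPS libraries 76.4% had a smaller SD, and in control libraries 59.5%. Among miRNAs within 2-fold of its level, 4 of 105 were steadier in quercetin plus LPS libraries, 7 of 110 in quercetin libraries, 92 of 109 in LPS libraries and 68 of 103 in control libraries. Single libraries set part of this: the SD was 0.40 without LPS replicate 3 and 0.25 without control replicate 2. miR-511-5p did not share the pattern, with SDs of 0.40, 0.44, 0.19 and 0.50 in quercetin plus LPS, quercetin, LPS and control libraries. A difference in spread between the groups was not tested.

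**Figure D3:**
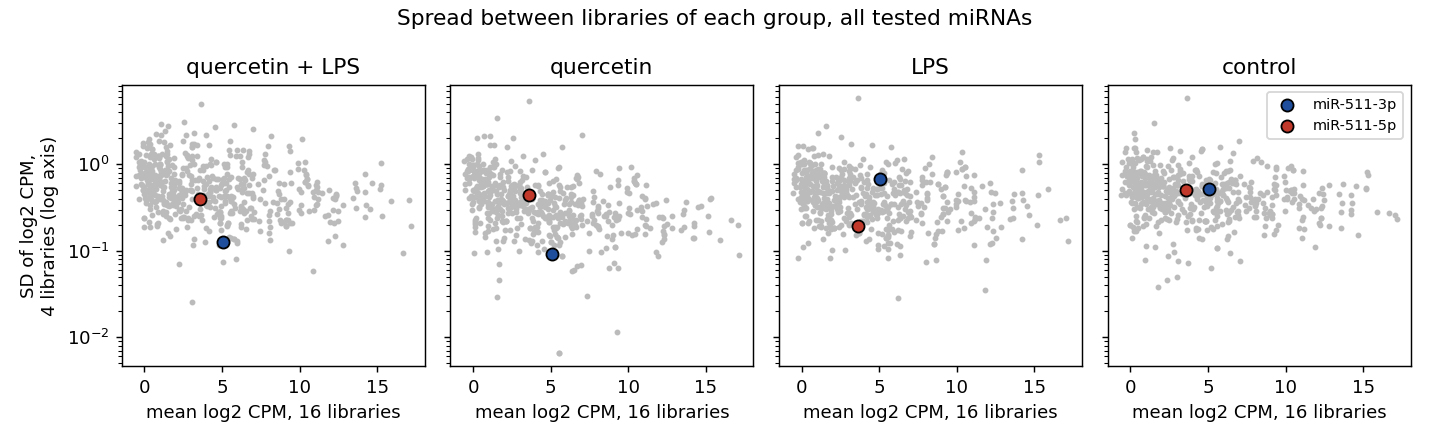
SD of log2 CPM over the 4 libraries of each group (log axis) against the mean log2 CPM over all 16 libraries; grey points are the 568 tested miRNAs and the coloured points both arms of miR-511. miR-511-3p sits near the lower edge in both groups with quercetin (SD 0.13 and 0.09) and within the cloud in LPS and control libraries (0.67 and 0.51).

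The share of the 3p arm among all miR-511 reads follows from both counts of a library and does not depend on its scaling. It was 70.9, 77.6, 79.7 and 83.5% in quercetin plus LPS replicates 1 to 4 and 69.1, 81.9, 77.5 and 80.0% in the quercetin replicates. In the LPS replicates it was 59.9, 53.6, 77.2 and 72.7%, and in the control replicates 81.4, 47.4, 72.7 and 76.3%. The 3p arm held most reads in all libraries except control replicate 2, where its exact 95% interval was 42.3 to 52.5%, which covers counting error only. In LPS replicate 2 the interval of 48.0 to 59.2% also included an even split of the arms. Mean shares were 77.9 ± 5.26% with quercetin plus LPS, 77.1 ± 5.66% with quercetin, 65.9 ± 10.98% with LPS and 69.5 ± 15.1% in control cells (SD, n = 4 each).

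The log2 ratio of 3p to 5p counts was 0.85 higher in quercetin plus LPS than in LPS cells and was higher in 4 of 4 mice, but the groups overlapped (two-sided exact permutation p = 0.114, adjusted over 4 comparisons 0.457). In mouse 3 the 3p shares were close, at 79.7 and 77.2%, and their counting intervals overlapped. Within mice the exact sign permutation gave the smallest p that 4 mice allow, which lies above 0.05, and between groups of 4 the smallest possible p is 0.0286. After adjustment over 4 comparisons, a single comparison at that smallest p would not pass 0.05 unless most of the others reached it too. The adjusted values therefore cannot show that the ratio was unchanged. Quercetin and control cells differed by 0.51 (exact permutation p = 0.457, adjusted 0.83, higher in 3 of 4 mice), and the difference was 0.0342 without control replicate 2, 0.79 without control replicate 1 and -0.10 without mouse 2. LPS and control cells differed by -0.28 (exact permutation p = 0.743, adjusted 0.83), and quercetin plus LPS and quercetin cells by 0.07 (exact permutation p = 0.83, adjusted 0.83). Of 150 hairpins with both arms tested, 28.7% had a larger absolute difference than miR-511 between quercetin plus LPS and LPS cells, and 45.3% between quercetin and control cells. The groups of miR-511 overlapped in all 4 comparisons, whereas those of 6.67% of hairpins did not overlap between quercetin plus LPS and LPS cells those of 14% did not between quercetin and control cells, those of 4.67% not between LPS and control cells and those of 5.33% not between quercetin plus LPS and quercetin cells. Its within-group SD of 0.686 stood beside a median of 0.684 over these hairpins.

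**Figure D4:**
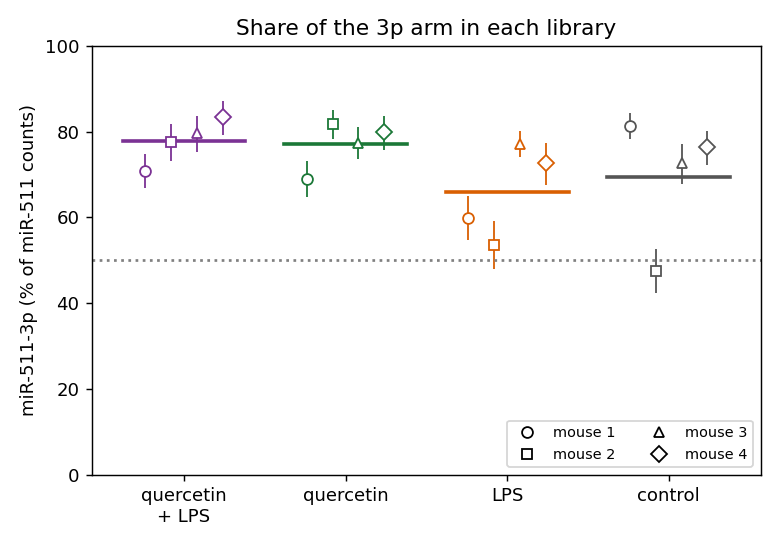
Share of the 3p arm among the reads of both arms of miR-511, in percent, with exact 95% intervals for each library; points are labelled by mouse. Control replicate 2 (47.4%) is the library in which 5p reads outnumber 3p reads, and the share is higher with quercetin plus LPS than with LPS in every mouse. In mouse 3 these shares are 79.7 and 77.2%, with intervals that overlap.

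Reads of both arms summed came to 48.7 ± 4.57 CPM with quercetin plus LPS, 55.3 ± 5.06 with quercetin, 40.2 ± 13.8 with LPS and 45.1 ± 6.51 in control cells (SD, n = 4 each). Pearson's r of their log2 CPM was -0.347 and Spearman's rho -0.1 over the 16 libraries, which share the scaling of each library. Without control replicate 2 it was -0.129, and within the libraries with and without quercetin it was 0.197 (n = 8) and -0.505 (n = 8). Each arm stood far down the list of miRNAs most like the other, at rank 386 for the 3p arm's neighbours and 474 for the 5p arm's.

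The miRNAs most like miR-511-3p over the 16 libraries were let-7f-2-3p (r = 0.88), miR-30b-5p (0.874), miR-378b (0.849), miR-542-3p (0.836) and miR-19b-3p (0.834), by Pearson's r of log2 CPM. let-7f-2-3p averaged 46.2 ± 2.35 CPM with quercetin plus LPS, 43.5 ± 3.73 with quercetin, 24.7 ± 15.5 with LPS and 28.4 ± 14.5 in control cells (SD, n = 4 each). After each group's mean was removed, r of these 5 lay between 0.796 and 0.841. For miR-511-5p they were miR-1198-5p (0.808), miR-704 (0.796), miR-425-5p (0.752), miR-1981-3p (0.736) and miR-331-5p (0.72). Spearman's rho kept 2 of the 5 for miR-511-3p and 4 for miR-511-5p. These values describe libraries that share depth and scaling.

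Other miRNAs linked to macrophage activation were read beside miR-511, from lists drawn up with earlier results of these data known. Of 6 tested miRNAs linked to alternative activation, the state marked by Mrc1, 1 rose and 2 fell in quercetin plus LPS against LPS cells and 1 rose and 1 fell in quercetin against control cells, with median log2 fold changes of -0.59 and -0.33 against -0.13 and -0.05 over all tested miRNAs. Of all tested miRNAs, 8.63% rose and 14.3% fell in quercetin plus LPS against LPS cells (49 and 81 miRNAs, but 71 and 54 with upper quartile scaling), and 6.87% rose and 8.98% fell in quercetin against control cells (39 and 51, but 48 and 29 with upper quartile scaling). let-7c-5p averaged 7565 ± 2476 CPM with quercetin plus LPS and 3813 ± 807 with LPS (log2 fold change 0.99, edgeR adjusted p = 0.0159), and 7263 ± 983 with quercetin and 3709 ± 1271 in control cells (0.97, adjusted p = 0.0220). miR-125a-5p averaged 56.7 ± 10.7 CPM with quercetin plus LPS and 164 ± 62.3 with LPS (-1.53, adjusted p = 0.00758), and 53.7 ± 8.87 with quercetin and 129 ± 66.3 in control cells (-1.26, adjusted p = 0.0242). miR-378a-5p, from an intron of Ppargc1b, gave -1.03 between quercetin plus LPS and LPS cells (edgeR adjusted p = 0.0140). By reads it is the minor arm of its hairpin, with a mean log2 CPM of 6.36 against 14.3 for miR-378a-3p. The value therefore covers the minor arm alone. The signs of let-7c-5p, miR-125a-5p and miR-378a-5p held under every alternative tried, but calls were lost. let-7c-5p passed in 25 of 27 alternatives in each comparison, miR-125a-5p in 18 of 27 for quercetin against control, and miR-378a-5p in 17 of 27. None of the 6 passed for LPS against control or for quercetin plus LPS against quercetin with edgeR.

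Of 8 miRNAs linked to activation by LPS or interferon, 2 fell with quercetin in each quercetin comparison and 1 rose with LPS in each LPS comparison. Of all tested miRNAs, 14.3% fell in quercetin plus LPS against LPS and 8.98% in quercetin against control cells, and 0.528% rose in LPS against control and 0.352% in quercetin plus LPS against quercetin cells. miR-155-3p, the minor arm of the miR-155 hairpin that LPS is known to induce, averaged 231 ± 90.2 CPM with quercetin plus LPS, 46.9 ± 7.14 with quercetin, 556 ± 186 with LPS and 139 ± 57.6 in control cells (SD, n = 4 each). It rose by 2.00 in LPS against control cells (edgeR adjusted p = 0.0106) and by 2.30 in quercetin plus LPS against quercetin cells (adjusted p = 0.00168), on the log2 scale. It was lower in quercetin plus LPS than in LPS cells (-1.26, adjusted p = 0.0147) and lower in quercetin than in control cells (-1.56, adjusted p = 0.00587). The major arm, miR-155-5p, passed in none of these comparisons with edgeR. miR-147-3p gave -1.73 between quercetin plus LPS and LPS cells (adjusted p = 0.000799) and -1.66 between quercetin and control cells (adjusted p = 0.00127), and both passed in 27 of 27 alternatives. miR-155-3p passed in 27 of 27 for quercetin against control, 26 of 27 for quercetin plus LPS against quercetin, 21 of 27 for LPS against control and 19 of 27 for quercetin plus LPS against LPS. In these same libraries neither arm of miR-511 passed.

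Among 28 other miRNAs from introns of coding genes, 2 rose and 3 fell in quercetin plus LPS against LPS cells and 1 rose and 3 fell in quercetin against control cells. These 5 of 28 and 4 of 28 stood near the 22.9% and 15.8% of all tested miRNAs that passed, so the count sets the list apart in neither comparison. miR-342-5p, from an intron of Evl, averaged 14.7 ± 2.38 CPM with quercetin plus LPS and 46.8 ± 5.36 with LPS (-1.67, edgeR adjusted p = 4.56e-05), and 17.9 ± 2.72 with quercetin and 63.7 ± 15.04 in control cells (-1.83, adjusted p = 2.98e-05). Its calls held in 27 of 27 alternatives in both comparisons. Its partner arm miR-342-3p gave -1.82 between quercetin plus LPS and LPS cells (adjusted p = 4.56e-05) and -0.80 between quercetin and control cells (adjusted p = 0.0259; 19 of 27 alternatives). miR-335-5p, from an intron of Mest, gave 1.65 between quercetin plus LPS and LPS cells (adjusted p = 0.0219) and 1.80 between quercetin and control cells (adjusted p = 0.0220; 21 of 27 alternatives). It was low, at 3.07 ± 0.993, 2.16 ± 0.748, 0.983 ± 0.605 and 0.604 ± 0.284 CPM in quercetin plus LPS, quercetin, LPS and control cells. Its partner miR-335-3p, also low, gave 2.00 between quercetin plus LPS (2.16 ± 1.63 CPM) and LPS cells (0.535 ± 0.461 CPM; adjusted p = 0.0362; 20 of 26 alternatives). The third that fell there was miR-378a-5p. miR-28a-5p, from an intron of Lpp, holds the same counts as the row of miR-28c and cannot be told apart from it here; it gave -0.57 between quercetin plus LPS and LPS cells (adjusted p = 0.0508) and fell in quercetin against control cells (-0.74, adjusted p = 0.0204; 20 of 27 alternatives).

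Markers of other cells moved with quercetin. The 5 erythroid miRNAs, of which miR-486a-5p and miR-486b-5p hold equal values, all rose in both quercetin comparisons, in which 8.63% (with LPS) and 6.87% (without LPS) of all tested miRNAs rose, with miR-451a at log2 fold changes of 3.03 between quercetin plus LPS and LPS cells (edgeR adjusted p = 1.74e-05) and 2.83 between quercetin and control cells (adjusted p = 2.93e-05). The calls of miR-451a held in 27 of 27 alternatives in both comparisons. Those of the other erythroid miRNAs held in 23 to 27 with LPS and in 25 to 27 without LPS. The summed level of the 5 erythroid miRNAs was 2343 to 5843 CPM with quercetin plus LPS, 5042 to 13118 with quercetin, 865 to 2797 with LPS and 775 to 1769 in control cells. Both equal miR-486 rows enter this sum, so reads that they share count more than once. Of 7 miRNAs of fibroblasts and smooth muscle, 5 (both arms of miR-145a, miR-143-3p, and miR-199b-3p and miR-199a-3p, which hold equal values) rose in quercetin plus LPS against LPS cells and 0 passed in quercetin against control cells with edgeR. All 5 lost their call without mouse 2, and miR-143-3p also with mouse as a replicate block (3.57, adjusted p = 0.0577). Of 27 alternatives, miR-143-3p kept its call in 24, miR-145a-5p in 25 and each of the others in 26. miR-143-3p averaged 1264 ± 2042 CPM with quercetin plus LPS and 39.4 ± 17.7 with LPS. In LPS libraries miR-145a-5p and miR-145a-3p averaged only 0.262 and 0.229 CPM. The sum of all 7 was 124 to 4592 CPM with quercetin plus LPS, 108 to 1283 with quercetin, 41.8 to 90.7 with LPS and 31.6 to 542 in control cells. Both equal miR-199 rows enter it. Both miR-150 arms, of lymphocytes, gave 0 calls in these comparisons with edgeR, with sums of 374 to 627 CPM with quercetin plus LPS, 543 to 787 with quercetin, 382 to 872 with LPS and 391 to 1023 in control cells. Of 6 miRNAs of myeloid and white blood cells, miR-223-5p alone fell, in quercetin against control cells (-0.98, edgeR adjusted p = 0.0188, 20 of 27 alternatives). Their sum lay between 171086 and 317430 CPM in all libraries. It was made up mostly of miR-21a-5p (mean log2 CPM 17.1 over all libraries) and miR-155-5p (15.2). miR-142a-5p stood at 14.5 and miR-223-3p at 11.1, so the sum says little about miR-223. No marker of these lists was at 0 in any group. The part of these markers in the values of miR-511 was not tested. The dendritic cell label itself could not be checked, since its defining markers are mRNAs and proteins.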

How the data were processed

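Small RNA libraries of 16 cultures (TruSeq Small RNA kit, RNA from a miRNeasy kit, per the labels) were analysed from the deposited table of read counts per mature miRNA, which the authors did not normalise. cutadapt and build mm9 are named in the submitters' processing notes; versions, aligner and counting rule, and so the treatment of reads shared by similar miRNAs, are not given in the sources used here. No mm9 coordinates were used: positions come from GENCODE M21 and RefSeq on GRCm38.

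Of 1381 rows with 1377 names, 4 names on 2 rows were summed, 1 row holding text was left out, and so were 4 rows (2 neighbouring pairs) whose counts look exchanged in libraries with quercetin. edgeR 4.0.16 (R 4.3.3) tested the 568 names kept by filterByExpr, with TMM scaling, 1 model over all 4 groups and Benjamini-Hochberg adjustment over all tested names (threshold 0.05). The standard error is the absolute log2 fold change over the square root of F. Log CPM used a prior count of 2 and arm ratios a pseudocount of 0.5, with exact permutation tests. Alternatives were DESeq2 1.42.0, limma-voom (limma 3.58.1), other scalings, no filter, fits of only the groups compared, left-out replicates and mice, and mouse as a block. The script was tested on simulated counts.

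The replicate numbers mark the same mouse in each group, by the titles and the design text. Deviations from group means correlated by 0.135 on average over 24 same-mouse pairs of libraries (-0.465 to 0.645) and by -0.0441 over 72 other pairs (-0.583 to 0.671). These ranges overlapped widely, so the values do not establish the pairing. The main edgeR model held no term for mouse. Each mouse gave 1 library per group, and no pair of the 120 library pairs was as close as sampling noise. Intervals of shares cover counting error only.

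The members and lists were chosen with earlier results of these data known. Named were both arms, the 5 miRNAs most correlated with each, and up to 3 members of each list with the smallest p in quercetin against control cells. miR-155-5p, miR-21a-5p, both arms of miR-378a, miR-342-3p, miR-335-3p and the miR-199 rows were named after their values were seen.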

Additional observations from a re-analysis of the deposited data

How the results depend on the processing

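The sign of miR-511-5p turned in LPS against control cells with limma-voom (0.0193) and without mouse 2 (0.18), and in quercetin against control cells with upper quartile scaling (0.15), library size scaling (0.0944) and without mouse 2 (0.36). It turned in quercetin plus LPS against LPS cells with upper quartile scaling (0.0502) and library size scaling (0.0374), and in the pooled quercetin contrast with both scalings (0.10 and 0.0659) and without mouse 2 (0.13). The pooled quercetin value of miR-511-3p passed with upper quartile scaling (0.64). The interaction of miR-511-3p was -0.0094 without mouse 4. The arm ratio gave -0.0981 for quercetin against control without mouse 2 and -0.0225 for quercetin plus LPS against quercetin without mouse 4. Likeness kept 2 of 5 neighbours of miR-511-5p without mouse 4, and 2 of 5 of miR-511-3p with Spearman's rho and 3 with deviations from group means. The causes were not tested.

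With single replicates left out, miR-511-5p lay between -0.23 and 0.20 for LPS against control, -0.25 and 0.26 for quercetin against control, -0.32 and 0.12 for quercetin plus LPS against LPS, -0.41 and 0.15 for quercetin plus LPS against quercetin, -0.31 and 0.24 for the interaction, -0.17 and 0.11 for pooled quercetin and -0.25 and 0.0461 for pooled LPS. miR-511-3p lay between 0.46 and 1.02 for quercetin plus LPS against LPS, -0.10 and 0.0107 for quercetin plus LPS against quercetin, -0.65 and -0.06 for LPS against control, 0.23 and 0.63 for quercetin against control, 0.0109 and 0.60 for the interaction, 0.43 and 0.72 for pooled quercetin and -0.35 and -0.05 for pooled LPS. The arm ratio lay between -0.75 and 0.0085 for LPS against control, 0.0342 and 0.79 for quercetin against control, 0.59 and 1.11 for quercetin plus LPS against LPS and -0.14 and 0.25 for quercetin plus LPS against quercetin.

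The count of miRNAs past the threshold was 3 for LPS against control (6 with DESeq2, 1 with library size scaling, 0 without mouse 4, and 0 to 5 without single replicates), 90 for quercetin against control (46 without mouse 4, 44 without mouse 2, and 54 to 99 without single replicates) and 130 for quercetin plus LPS against LPS (70 with only the groups compared, 79 without mouse 4, 56 without mouse 2, and 80 to 141 without single replicates). It was 2 for quercetin plus LPS against quercetin (4 with DESeq2, 1 without mouse 4, and 2 to 7 without single replicates), 206 for pooled quercetin (116 without mouse 2) and 8 for pooled LPS (11 with DESeq2, 5 with limma-voom, 3 with library size scaling, 3 without mouse 4, 4 without mouse 2, and 3 to 8 without single replicates). With mouse as a replicate block, miR-511-3p gave 0.46 (edgeR adjusted p = 0.286) for quercetin against control and 0.54 (adjusted p = 0.176) for quercetin plus LPS against LPS, and no call of either arm changed. The interaction was not fitted with only the groups compared, since it uses all groups. The alternatives without mouse 2 and the pooled contrasts were chosen after seeing the data. Precision rests on 61 to 201 counts of miR-511-5p and 171 to 587 of miR-511-3p per library and on 4 mice; the smallest detectable difference was not tested.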
